A study of Mus musculus with 8 samples.

Results

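The 80 genes described here encode the proteins of the cytosolic ribosome. They were taken from a gene count table of mouse splenic germinal centre B cells as the rows named Rpsa, Rplp0, Rplp1 or Rplp2, or Rps or Rpl followed by a number and, for forms such as Rps4x or Rpl22l1, a closing letter or number, and they had to hold at least 100 counts in the sum of the 8 libraries. This gave 33 small subunit genes, 44 large subunit genes and 3 genes of the P stalk, 80 of the 55421 genes in the table. Another 9 rows matched the name but not the minimum. Rps4l, at 146 counts and annotated as a transcribed processed pseudogene, lay just inside it, and Rpl24, at 80 counts, lay just outside. Of the other rows outside, Rpl10l and Rpl39l, retrogene or duplicate forms best known from testis, held 0 counts in all 8 libraries, and Rpl3l, the striated muscle form of Rpl3, held 2. No expression value other than this minimum entered the rule, which was set with earlier results of these data known. All 80 passed the filter on low counts that left 12997 genes for testing.

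A ribosome joins a small subunit, which reads the mRNA, to a large subunit, which forms the peptide bond, and each subunit is an assembly of ribosomal RNA and one copy of most of these proteins. Rplp0, Rplp1 and Rplp2 form the stalk of the large subunit, which recruits the GTPases of elongation. The mRNAs of ribosomal proteins start with a short run of pyrimidines, through which mTORC1 and LARP1 set their translation, and MYC is a well known activator of ribosome production. In the germinal centre, B cells divide and mutate their antibody genes as centroblasts in the dark zone and are tested for antigen binding as centrocytes in the light zone, where selected cells turn on Myc and mTORC1 and grow before they divide again.

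The study compared Smarca4+/+ (wild-type) and Smarca4+/- (heterozygous) cells in 2 fractions, labelled CB and CC and read here as centroblasts and centrocytes, with 2 libraries in each of the 4 groups. Smarca4 encodes an ATPase of the SWI/SNF (BAF) chromatin remodelling complex. All groups came from C57BL/6 mice of 8 to 10 weeks, whose spleen cells were taken on day 10 after immunization and isolated with a PNA microbead kit, and RNA was sequenced after depletion of ribosomal RNA. The labels used here do not say how the Smarca4 allele was made, in which cells it acts, what the immunogen was, or whether the 2 libraries of a group came from separate mice or pools. Where they did not, the p-values below measure the spread between these libraries, which may be technical.

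Library totals ran from 18357578 to 24341805 counts in CB and from 526353 to 837558 in CC, so a ribosomal protein gene had a median of 2343.5 to 3576 counts in a CB library and of 82 to 95.5 in a CC library. Smarca4 itself was at 897 and 1002 CPM (counts per 1000000, scaled with TMM factors) in wild-type CB and at 734 and 702 in heterozygous CB. In CC it was at 322 and 316 CPM in wild-type libraries and at 244 and 311 in heterozygous ones. The genotypes did not overlap in either fraction, which in this direction held for 15.8% of all genes tested in CB and 14.4% in CC. The nearest values in CC, 316 and 311 CPM, came from 193 and 262 counts and cannot be told apart. The B cell genes Cd79a, Cd79b, Ms4a1, Pax5 and Cd22 had counts in all 8 libraries. Germinal centre B cell markers summed to between 1949 and 2070 CPM in CB, and in CC to 974 and 1354 in wild-type and 1111 and 1583 in heterozygous libraries. Of these 8, 7 were lower in CC than in CB in Smarca4+/+ (median log2 fold change -0.74) and 8 in Smarca4+/- (-0.53), of which 2 and 1 fell. Of 6 dark zone markers, 6 fell from CB to CC in Smarca4+/+ and 5 in Smarca4+/-, and of 6 light zone markers 4 and 5 rose. Markers of other cells were also higher in CC: macrophage markers summed to 79.5 to 366 CPM in CB and 2248 to 5154 in CC, T cell markers to 113 to 138 and 230 to 889, and erythroid markers to 9.99 to 19.4 and 140 to 817. Most of the T cell sum in CB was Lck, with 2085 to 2810 counts in a CB library, where no other T cell marker had over 36. The median log2 fold change of the 16 T cell markers from CB to CC was 6.772 in Smarca4+/+ and 5.535 in Smarca4+/-. In these bulk libraries, fewer cells of a type and less RNA per cell cannot be told apart.

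The promoters of these genes are shown first because the genes are known to share start site features and because those below belong to genes named in the results. RefSeq promoter windows of GRCm38.p6, from 250 bases before to 50 after the start, were found by symbol for 59 of the 80 genes, and 27025 genes have one in that table. The motif CCGGAAG, the core bound by ETS factors such as GABPA, was found on either strand in 25 of 59 ribosomal protein windows (42.4%), against 9.93% of all windows and 21.8% of those of genes tested here. AAGATGG, the core of the YY1 motif, was in 10 of 59 (16.9%) on either strand, against 7.28% of all and 8.92% of tested genes. The E-box CACGTG, the site of MYC and MAX, was in 6 of 59 (10.2%), between 8.09% of all and 12.1% of tested genes. CTTTTCC, a pyrimidine run of the kind found at the start of these mRNAs, lay on the gene strand within 50 bases of the start in 8 of 59 (13.6%), against 1.48% of all and 1.48% of tested genes, and in the whole window in 9 of 59 (15.3%), against 4.56% and 4.61%. The longest run of C and T in that stretch had a median of 11 bases, against 7 in all windows. The TATA box core TATAAA was within 50 bases of the start in 5 of 59 windows (8.47%), against 5.77% of all and 2.78% of tested genes, and in the whole window in 7 of 59 (11.9%), against 15.7% and 8.39%. These matches describe the letters only.

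The 6 windows printed here run 5′ to 3′ on the gene strand from 60 bases before to 30 bases after the start. They belong to the 2 genes that fell in Smarca4+/- (Rps15a and Rps28), to 2 of those with small p for genotype in CC (Rpl23 and Rps3a1), and to 2 others named below (Rpl26 and Rps7). Capitals mark the motif match: the YY1 core, read on the opposite strand, for Rps15a, the E-box for Rpl23, and the ETS core for Rps3a1, Rpl26 and, read on the opposite strand, Rps7. The Rps28 window held none of these motifs. Over the same stretch, the windows of Rps15, Rps18 and Rps26, which are not printed, also held none.
Rps15a, GRCm38.p6 chr7:118116118-118116207, - strand: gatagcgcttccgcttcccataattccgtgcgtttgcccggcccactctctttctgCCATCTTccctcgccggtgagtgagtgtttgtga
Rps28, GRCm38.p6 chr17:33824533-33824622, - strand: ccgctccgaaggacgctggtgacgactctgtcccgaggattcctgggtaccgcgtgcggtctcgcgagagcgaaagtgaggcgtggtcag
Rpl23, GRCm38.p6 chr11:97782410-97782499, - strand: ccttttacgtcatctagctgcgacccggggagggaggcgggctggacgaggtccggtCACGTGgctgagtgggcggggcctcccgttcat
Rps3a1, GRCm38.p6 chr3:86142639-86142728, - strand: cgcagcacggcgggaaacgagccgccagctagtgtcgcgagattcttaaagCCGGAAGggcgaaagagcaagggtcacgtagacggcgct
Rpl26, GRCm38.p6 chr11:68901506-68901595, + strand: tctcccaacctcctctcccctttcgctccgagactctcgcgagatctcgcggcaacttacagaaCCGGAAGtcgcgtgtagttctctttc
Rps7, GRCm38.p6 chr12:28635924-28636013, - strand: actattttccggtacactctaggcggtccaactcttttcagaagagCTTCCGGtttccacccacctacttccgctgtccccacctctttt

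Added over all 80 genes, ribosomal protein counts were a small share of each library, and the genotype difference ran one way in CB and the other way in CC. The share was 1.43% and 1.23% of all counts in the Smarca4+/+ CB libraries and 1.74% and 1.61% in the Smarca4+/- CB libraries. It was 1.76% and 1.91% in Smarca4+/+ CC and 1.501% and 1.33% in Smarca4+/- CC. In CB both Smarca4+/- libraries were above both Smarca4+/+ libraries, and in CC both were below. The group means were 1.33% ± 0.144 (SD, n = 2) and 1.67% ± 0.087 in CB, a ratio of 1.26, and 1.83% ± 0.105 and 1.42% ± 0.121 in CC, a ratio of 0.772. From CB to CC the mean share was 1.38 times as high in Smarca4+/+ and 0.845 times as high in Smarca4+/-. The sums are given as values and were not tested.

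Counting error does not cover these gaps. Most counts in the table are even numbers (60.25% to 64.1% of nonzero counts in CB and 74.44% to 86.18% in CC), so intervals were taken on counts divided by 2. The 95% Wilson interval was 1.71% to 1.81% in Smarca4+/+ CC replicate 1, the lower of its group, and 1.461% to 1.543% in Smarca4+/- CC replicate 1, the higher of its group. Such intervals cover counting error only, not the spread between samples.

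The genotype difference kept its direction in each fraction after scaling, though the lowest group changed from Smarca4+/+ CB to Smarca4+/- CC. The sum of TMM-scaled CPM was 14370 ± 585.5 in wild-type and 17270 ± 685.9 in heterozygous CB, and 17470 ± 1302 in wild-type and 13390 ± 254.6 in heterozygous CC, with genotype ratios of 1.2 in CB and 0.766 in CC. Genes of the ribosomal RNA locus (Gm26917, Gm42418 and AY036118) held 17.43% to 31.13% of the counts of a library, and mitochondrial genome genes held 0.699% to 1.402% in CB and 2.235% to 5.859% in CC. With both left out of the totals, the genotype ratios of the share were 1.2 and 0.793. The division between the subunits was steady: small subunit genes held 40.1% to 43.28% of the ribosomal protein counts in each of the 8 libraries.

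**Figure D1:**
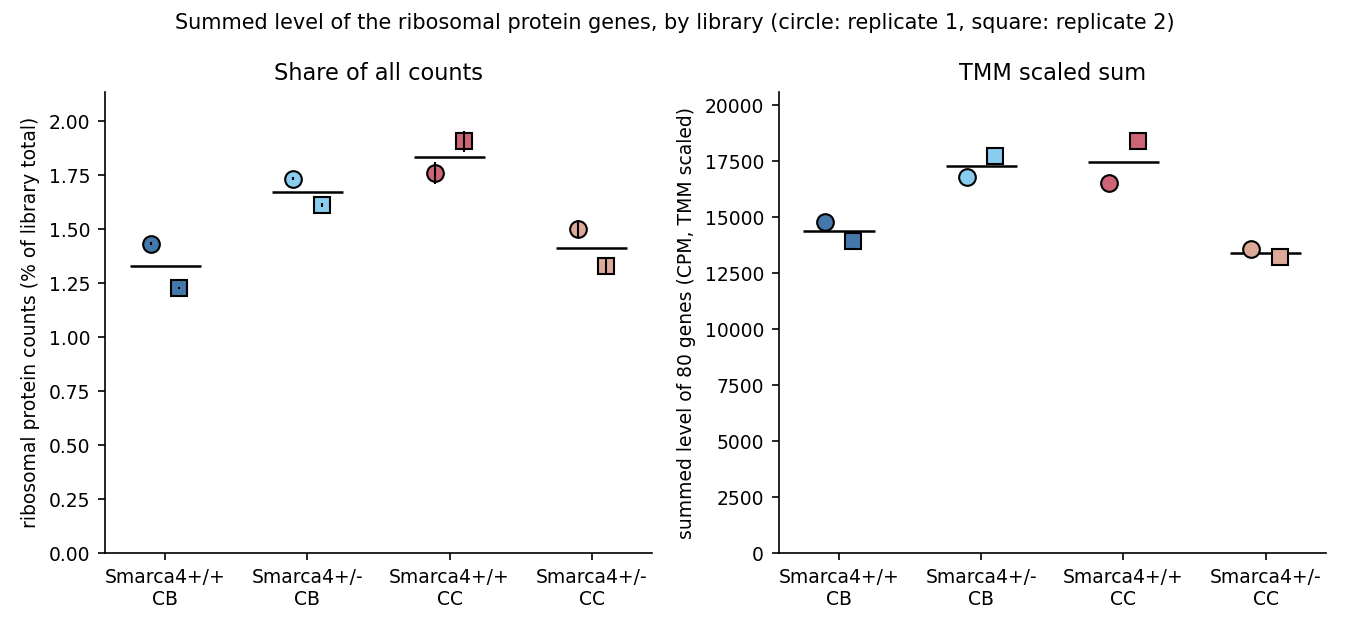
Summed level of the 80 ribosomal protein genes in each library, on the left as a percent of all counts (bars: 95% Wilson interval) and on the right as the sum of TMM-scaled CPM, with a line at each group mean (2 libraries, circle replicate 1 and square replicate 2). Smarca4+/- libraries are the higher ones in CB (1.74% and 1.61% against 1.43% and 1.23%) and the lower ones in CC (1.501% and 1.33% against 1.76% and 1.91%).

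The genes differed far more among themselves than between groups. Per kilobase of exon, Rpl4, a core large subunit protein near the exit tunnel, was highest at a mean of 613 CPM per kb, followed by Rps15 (595), Rplp1 (565), Rplp0 (454.5) and Rpl8 (402). The least counted were Rps4l at a mean of 3.54 CPM, Rps10 at 7.15, Rps27l at 10.96 and Rpl22l1 at 12.6. The 10 genes of highest mean CPM held 37.69% of the CPM summed over all 80. Rpl4, Rplp0, Rpsa and Rpl8 were among the 5 genes of highest CPM in each of the 4 groups. Rpl7 was the other in both CB groups, and Rps4x was the other in both CC groups. The genes lie on 19 chromosomes, with 14 on chromosome 7 and 4 on X. Of the 50-base sequences in their protein coding transcripts, a median of 38.3% also occurs in another annotated gene, so the authors' counting may have lost or shared some of their reads. These transcripts do not cover all the exon length counted. The share had almost no relation to the level per kb across genes (Pearson r = 0.0317, 79 genes).

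**Figure D2:**
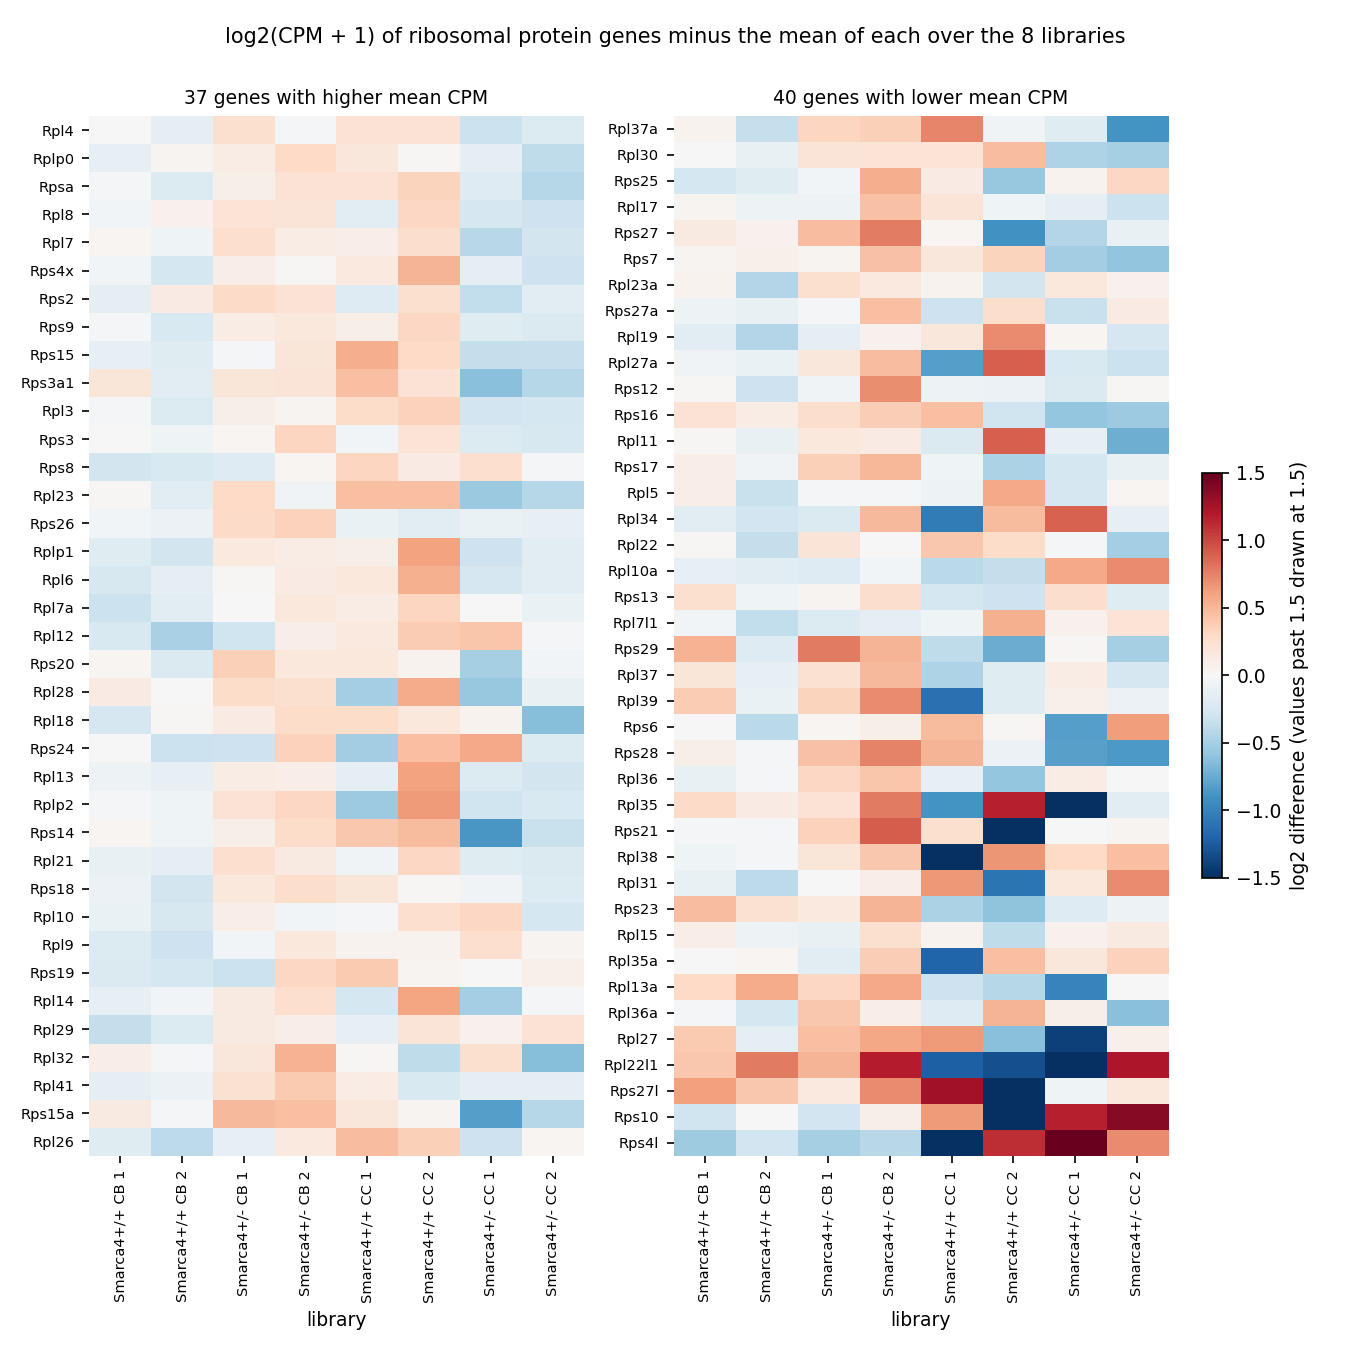
Level of 77 of the 80 genes (rows) in each of the 8 libraries (columns), as log2(CPM + 1) minus the gene's mean over the libraries, with the 37 genes of higher mean CPM on the left and the 40 of lower on the right. Among the higher genes the columns of Smarca4+/+ CC are mostly red and those of Smarca4+/- CC mostly blue, while the lower genes differ between replicates of CC.

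Replicates set how far single genes can be read. The log2 difference between the 2 replicates had an SD over genes of 0.20 in Smarca4+/+ CB and 0.25 in Smarca4+/- CB, but of 1.01 in Smarca4+/+ CC and 0.55 in Smarca4+/- CC. No gene was over 2-fold apart between CB replicates, against 14 in Smarca4+/+ CC and 7 in Smarca4+/- CC. Rpl38, a large subunit protein known for its part in translating Hox mRNAs, was at 10.7 and 68.7 CPM in the Smarca4+/+ CC libraries, and Rpl35 was at 25.02 and 107.9.

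Between genotypes in CB, no ribosomal protein gene passed the test, and neither did any other gene (0.0% of 12997, edgeR quasi-likelihood test with Benjamini-Hochberg adjustment at 0.05). The fitted log2 fold changes of Smarca4+/- against Smarca4+/+ were small and nearly all positive: 77 of 80 were above 0, where 49.3% of all genes tested were, and their median was 0.27 against -0.00435 for all genes. In 55 genes both Smarca4+/- libraries were above both Smarca4+/+ libraries, which held for 16.2% of all genes, and in 0 genes were they both below, which held for 15.8%. At an unadjusted p under 0.05 there was 1 gene higher, Rps26 (0.285% of all genes), and 0 lower (0.362%). The shift had a similar size in the small subunit (median 0.26, 30 of 33 positive), the large subunit (0.27, 44 of 44) and the stalk (0.31, 3 of 3), and its spread over genes (SD 0.14) was below the median SE of 0.24. In the same CB libraries mitochondrial genome genes held 1.402% and 1.161% of counts in Smarca4+/+ and 0.7135% and 0.699% in Smarca4+/-. Macrophage markers summed to 79.5 and 366 CPM against 160 and 104.5, with a median log2 fold change of -0.86 and 15 of 17 lower, none of which passed the test. Their part in the shift was not tested.

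Rps26, a small subunit protein at the mRNA exit and one of the genes mutated in Diamond-Blackfan anaemia, was at 276 and 267 CPM in Smarca4+/+ CB and at 346 and 363 in Smarca4+/- CB (log2 fold change 0.39, SE 0.17, edgeR adjusted p = 1). In CC its 4 libraries lay between 252 and 266 CPM. The shortest ribosomal protein, Rpl41, was at 149 and 154.5 CPM against 192 and 217 (0.43, SE 0.20), and Rps28 at 55.8 and 51.2 against 71.4 and 87.99 (0.57, SE 0.28). Rps18 (0.40, SE 0.19) and Rpl29 (0.40, SE 0.20) followed, each with an adjusted p of 1 and with groups that did not overlap. All 5 were higher in both Smarca4+/- libraries, but none passed the edgeR test. That test takes its spread from all 8 libraries, so the wider replicate differences in CC enter it as well as those in CB. Of all genes, 0.646% had an unadjusted p under 0.05 in this comparison. With only the CB libraries in the fit, 0 of the 80 genes passed.

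Between genotypes in CC, again no ribosomal protein gene passed the adjusted test, against 0.0231% of all genes, which is 3 genes. Here 25 of 80 log2 fold changes were above 0 and 55 below, where 55.0% of all genes were above, and the median was -0.31 against 0.03 for all genes. At an unadjusted p under 0.05 by edgeR there were 22 genes lower in Smarca4+/- (6.43% of all genes) and 1 higher (8.8%). Both Smarca4+/- libraries were below both Smarca4+/+ libraries in 34 genes (14.4% of all genes) and above in 8 (18.1%). Without Smarca4+/+ CC replicate 2 the median was -0.18, with 52 of 80 below 0, and without each other library it was between -0.36 and -0.30. DESeq2, run as an alternative, called 18 of the genes lower and 1 higher, among 829 calls over all genes.

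Of the 6 genes of smallest p, those described here were lower in Smarca4+/- except for Rpl10a. Rpl23, a large subunit protein that can bind MDM2, was at 397 and 397 CPM in Smarca4+/+ CC and at 198 and 216 in Smarca4+/- CC (log2 fold change -0.94, SE 0.20, edgeR adjusted p = 0.112). In CB it was at 294 and 260 CPM against 357 and 280, so the libraries of the genotypes overlapped there. Rps14, a small subunit protein near the mRNA channel, was at 268 and 281 CPM in Smarca4+/+ CC against 109.5 and 160 (-1.02, SE 0.23, adjusted p = 0.131). For Rps3a1, of the small subunit platform, the values were 482.5 and 410 against 228 and 263 CPM (-0.86, SE 0.20, adjusted p = 0.132). Rps15, which reaches the decoding centre, was at 536 and 451 against 286 and 289 CPM (-0.78, SE 0.18, adjusted p = 0.132). In each of these 4 both Smarca4+/- CC libraries were well below both Smarca4+/+ CC libraries, and none passed the adjusted test.

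Rpl10a, which forms the L1 stalk where spent tRNA leaves, went the other way. It was at 53.6 and 55.6 CPM in Smarca4+/+ CC (30 and 34 counts) and at 107 and 117 in Smarca4+/- CC (80 and 99 counts), higher by 1.04 on the log2 scale (SE 0.28, adjusted p = 0.16). In all 4 CB libraries it stayed between 62.5 and 69.5 CPM.

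In CC the direction went with the level of the gene. Of the 27 most abundant genes (221 to 1230 CPM), 25 were lower in Smarca4+/-, with a median log2 fold change of -0.48 and 14 at an unadjusted p under 0.05, and of the 26 in the middle (91.6 to 215 CPM) 20 were lower (median -0.32). Of the 27 least abundant (3.54 to 83.7 CPM), 17 were higher, with a median of 0.34 and wide errors. In CB the same sets of genes had medians of 0.24, 0.32 and 0.29. The subunits did not stand far apart in CC: 22 of 33 small subunit genes were lower (median -0.22), 30 of 44 large subunit genes (-0.35) and 3 of 3 stalk genes (-0.43). Genes sharing over 50% of their 50-base transcript sequences with other genes had medians of 0.26 in CB and -0.27 in CC. Those sharing at most 50% had 0.28 and -0.34.

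**Figure D3:**
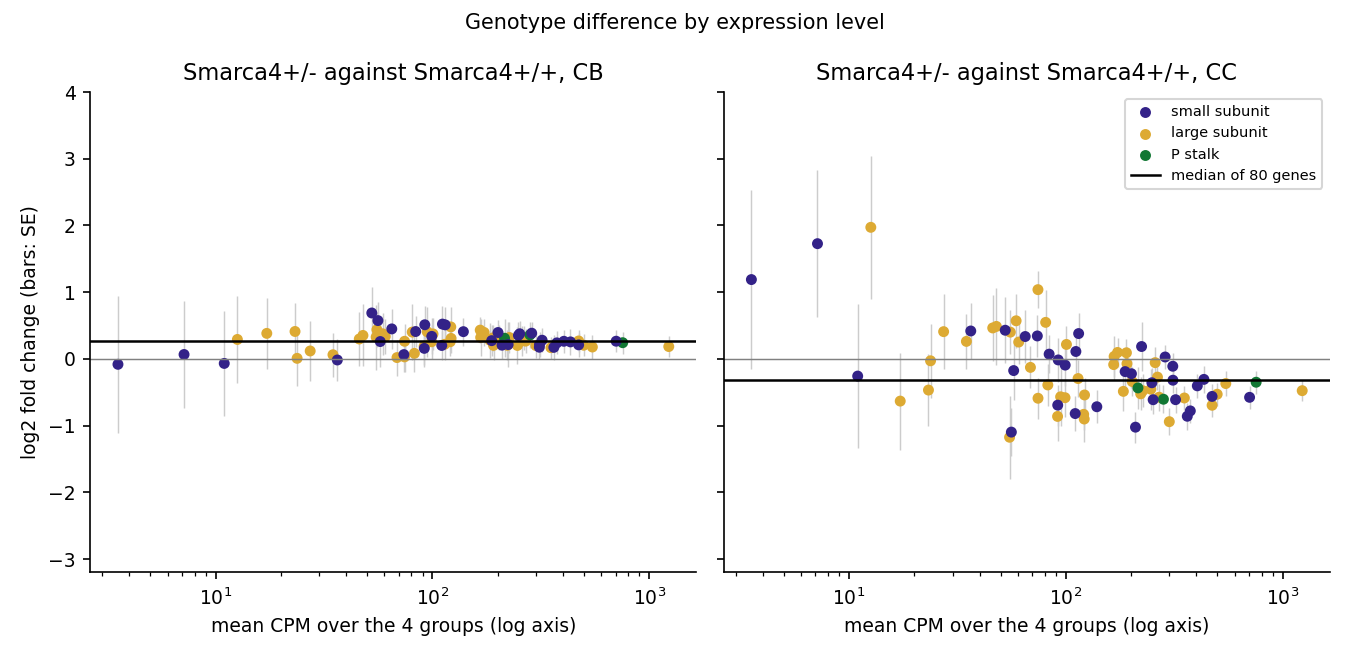
Log2 fold change of Smarca4+/- against Smarca4+/+ (y axis, bars: SE) by mean CPM over the 4 groups (x axis, log scale), in CB (left) and CC (right), 1 point a gene. In CB most points lie near the median of 0.27, with several of the least abundant genes near 0. In CC the 27 most abundant genes have a median of -0.48, and the 27 least abundant have 0.34 with an SD of 0.73.

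The CC libraries also differed in other cells. T cell markers summed to 815 and 889 CPM in Smarca4+/+ CC and 390 and 230 in Smarca4+/- CC, and none of the 16 passed the test, though all 16 were lower, with a median log2 fold change of -1.84. Of these markers, Icos and Themis were each at 0 in 1 CC library. Lck had 90 and 125 counts in Smarca4+/+ CC and 75 and 140 in Smarca4+/- CC. In Smarca4+/- CC replicate 2 no other T cell marker had over 8 counts. Erythroid markers summed to 743 and 817 against 505 and 140 CPM, with 9 of 9 lower, and macrophage markers to 4071 and 4303 against 5154 and 2248. Mitochondrial genome genes held 5.561% and 4.007% against 5.859% and 2.235% of counts. Dark zone markers went the other way, with sums of 1397 and 1388 CPM in Smarca4+/+ CC and 2090 and 3023 in Smarca4+/- CC, a median log2 fold change of 0.86 and 5 of 6 higher, none of which passed the test. Of these, the proliferation marker Mki67 had 632 and 628 counts against 1331 and 2171, and the mitotic kinase Aurka had 2 and 2 against 18 and 27. The part of any of these in the ribosomal protein differences was not tested.

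From CB to CC in Smarca4+/+, 1 ribosomal protein gene rose and none fell, while 7.49% of all genes passed the test (3.72% rose and 3.76% fell). This count was 0 with only the 4 Smarca4+/+ libraries in the fit, and it changed with which library was left out. DESeq2 called 21 of the 80 genes, among 2148 of all genes.

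Across the 80 genes in Smarca4+/+, 59 log2 fold changes of CC against CB were above 0, where 42.0% of all genes were, and the median was 0.24 against -0.19 for all genes. At an unadjusted p under 0.05 there were 14 genes higher (10.0% of all genes) and 1 lower (13.2%). Both CC libraries were above both CB libraries in 32 genes (18.2% of all genes) and below in 12 (38.5%). The medians were 0.20 in the small subunit, 0.29 in the large subunit and 0.22 in the stalk. In the same libraries 14 of 17 macrophage, 12 of 16 T cell and 7 of 9 erythroid markers rose from CB to CC (16, 8 and 6 in Smarca4+/-), and their part in these differences was not tested. Scaling moved the median of all genes from -0.19 (TMM) to -0.07 under RLE and -0.00404 under total counts. Against it the ribosomal protein median was higher by 0.431, 0.432 and 0.426. Under TMM this gap was 0.274 without Smarca4+/+ CB replicate 2, 0.93 without Smarca4+/+ CC replicate 1 and 0.74 without Smarca4+/+ CC replicate 2.

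Several genes of small p in Smarca4+/+ did not pass the adjusted test. Rps15 was at 336 and 322.5 CPM in CB and 536 and 451 in CC (0.58, SE 0.18, adjusted p = 0.0725). The stalk gene Rplp1 was at 243 and 227 CPM in CB and 293 and 418.5 in CC (0.60, SE 0.21, adjusted p = 0.106). Rpl26, a large subunit protein that can bind the p53 mRNA, was at 105 and 90.7 CPM against 164 and 154 (0.70, SE 0.24, adjusted p = 0.106). In each of the 3 both CC libraries were above both CB libraries. Rpl6, of the large subunit, had 0.56 (SE 0.19) with an adjusted p of 0.108.

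From CB to CC in Smarca4+/-, 2 ribosomal protein genes fell and none rose, where 3.67% of all genes passed the test (1.5% fell and 2.17% rose). Rps15a (ENSMUSG00000008683.16, mm10 chr7:118104372-118116188, - strand), a small subunit protein, was at 187 and 183 CPM in CB and at 74.8 and 99.6 in CC (-1.08 on the log2 scale, SE 0.23, edgeR adjusted p = 0.0277). Rps28 (ENSMUSG00000067288.13, mm10 chr17:33819027-33824562, - strand), a short protein at the mRNA exit, was at 71.4 and 87.99 CPM in CB and at 29.4 and 28.4 in CC, the latter from 22 and 24 counts (-1.46, SE 0.33, adjusted p = 0.0339). Both genes lay lower in both CC libraries than in both CB libraries. In Smarca4+/+, Rps15a was at 147 and 132 CPM in CB and 150 and 137 in CC, and Rps28 at 55.8 and 51.2 in CB and 75.05 and 49.04 in CC.

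Neither call held in every setting. With only the 4 Smarca4+/- libraries in the fit the adjusted p was 0.0653 for Rps15a and 0.0544 for Rps28, with total counts as scaling 0.0654 and 0.0647, and with CB libraries thinned to the mean CC total of 657641 counts 0.154 and 0.173. Without 1 library the p values were 0.0749 and 0.0961 (Smarca4+/+ CB replicate 1), 0.0752 and 0.0976 (Smarca4+/+ CB replicate 2), 0.263 and 0.22 (Smarca4+/- CB replicate 1), 0.203 and 0.323 (Smarca4+/- CB replicate 2) and 0.157 and 0.156 (Smarca4+/- CC replicate 1) for Rps15a and Rps28. Rps28 was also not called with RLE scaling (0.0504) or without Smarca4+/- CC replicate 2 (0.0682).

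Across the 80 genes in Smarca4+/-, 63 log2 fold changes of CC against CB were below 0 (17 above 0, where 46.0% of all genes were), and the median was -0.43 against -0.08 for all genes. At an unadjusted p under 0.05 there were 22 genes lower (9.36% of all genes) and 1 higher (8.79%). Both CC libraries were below both CB libraries in 52 genes (33.2% of all genes) and above in 5 (20.2%). The medians were -0.44 in the small subunit, -0.39 in the large subunit and -0.46 in the stalk. The genes' median minus that of all genes was -0.345, and it was 0.0623 without Smarca4+/- CC replicate 2, where the median of the genes themselves was -0.371 and 66 of 80 were below 0. Rps7, a small subunit protein that can bind MDM2, was at 111 and 146 CPM in CB and 74.8 and 71.1 in CC (-0.82, SE 0.25, adjusted p = 0.101). Rps3a1 (-0.71, SE 0.19) and Rps14 (-0.76, SE 0.22) had adjusted p values of 0.0729 and 0.0923. DESeq2 called 11 of the 80 genes lower and 2 higher, among 1487 of all genes. Rps3a1 and Rps14 were also among the genes of smallest p for genotype in CC, a comparison that shares the Smarca4+/- CC libraries with this one.

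The difference between the 2 genotypes' fraction changes was tested with an interaction term. No ribosomal protein gene and no other gene passed it (0.0% of 12997 by edgeR), and 27 of the 80 genes had an unadjusted p under 0.05 with a negative term, against 3.63% of all genes, and 1 had a positive term (5.56%). DESeq2 called 18 of the genes with a negative term and 1 with a positive one, among 323 calls over all genes. The term was negative for 68 of 80 genes (12 above 0, where 54.5% of all genes were), with a median of -0.55 against 0.10. Among those of smallest p, each with an adjusted p of 0.419 by edgeR, were Rpl23 (-1.14, SE 0.27), Rps15 (-1.02, SE 0.25), Rps14 (-1.23, SE 0.31), Rps3a1 (-1.03, SE 0.27) and Rps28 (-1.67, SE 0.45).

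**Figure D4:**
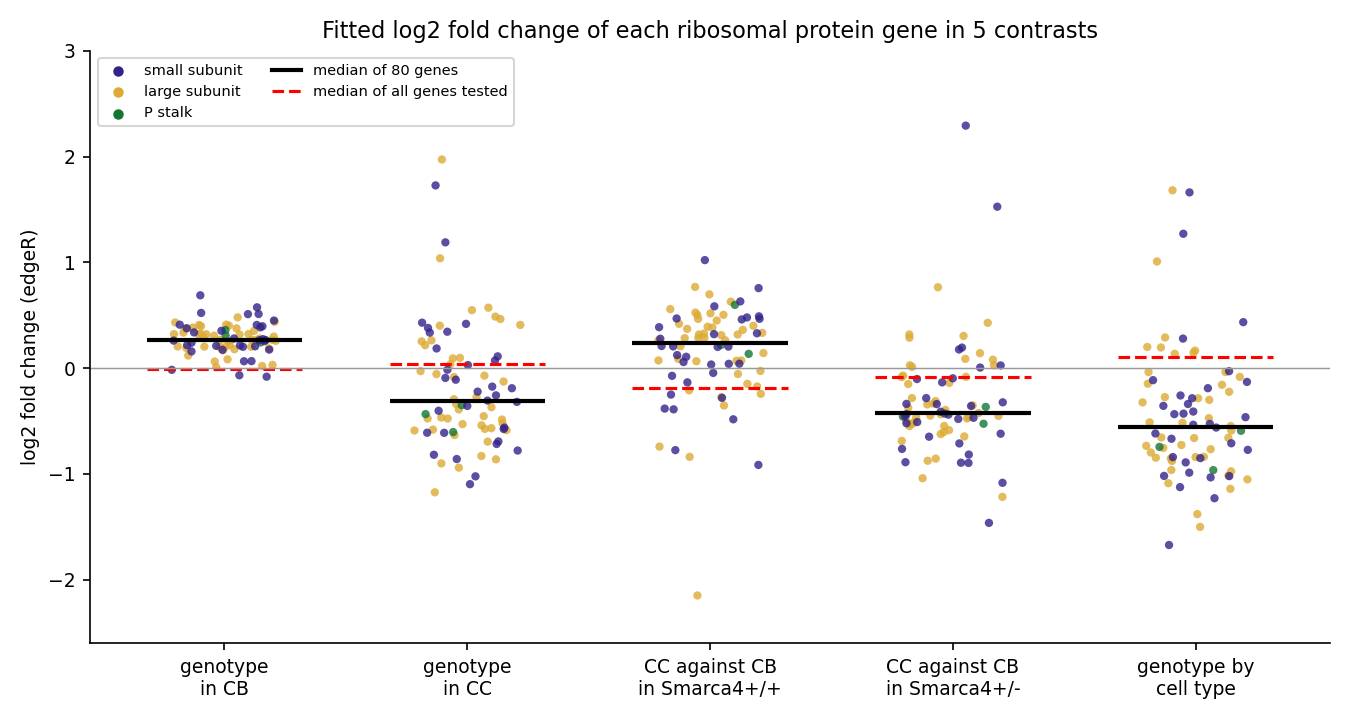
Fitted log2 fold change of each of the 80 genes (points, coloured by subunit) in the 5 comparisons, with the median of the 80 genes (solid line) and of all 12997 genes tested (dashed line). The solid line is above the dashed one for the genotype difference in CB (0.27) and for the CB to CC change in wild-type cells (0.24), and below it for the genotype difference in CC (-0.31), the CB to CC change in heterozygous cells (-0.43) and the interaction (-0.55).

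Gene by gene, 54 of 80 were higher in Smarca4+/- CB and lower in Smarca4+/- CC than in the Smarca4+/+ group of the same fraction, 23 were higher in both, 2 were lower in CB and higher in CC, and 1 was lower in both. The sizes of the 2 genotype differences had little relation across genes (Pearson r = -0.115 over 80 genes that share their libraries). From CB to CC, 47 genes had a positive fold change in Smarca4+/+ and a negative one in Smarca4+/-, 16 were negative in both, 12 positive in both and 5 negative then positive.

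**Figure D5:**
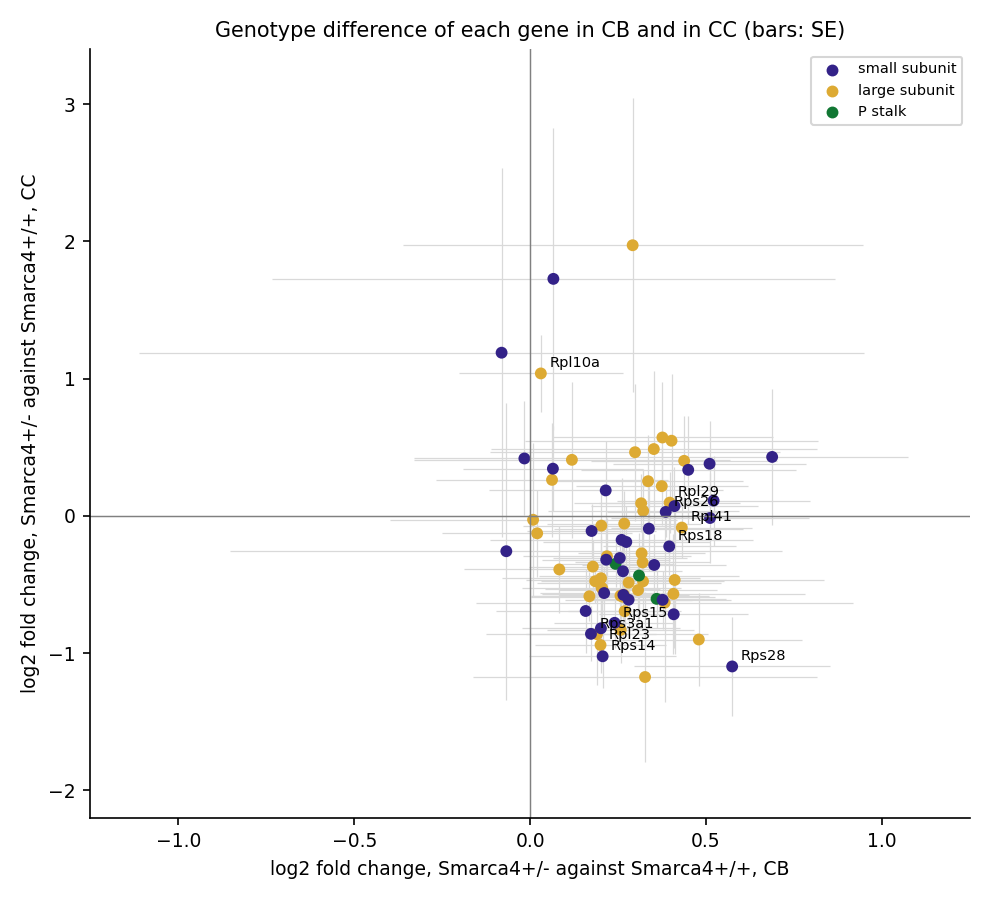
Log2 fold change of Smarca4+/- against Smarca4+/+ in CB (x axis) and in CC (y axis), 1 point for each of the 80 genes with its SE, coloured by subunit, with names for some genes of small p. Of the 80 points, 54 lie in the lower right, where the gene is higher in Smarca4+/- CB and lower in Smarca4+/- CC, and the only named gene clearly above 0 in CC is Rpl10a, at 1.04.

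Genes with known roles of their own are given next as genotype log2 fold changes, and none of those in this and the next 3 paragraphs passed the test in any comparison. Rpsa, the laminin receptor precursor of the small subunit, was at 680 and 603 CPM in wild-type and 735 and 807 in heterozygous CB, and at 804 and 873 in wild-type and 609 and 517 in heterozygous CC. Its genotype log2 fold changes were 0.27 in CB and -0.58 in CC. The stalk base Rplp0 was at 688 and 768, 804.5 and 918, 843 and 755, and 681 and 574 CPM in the same order of groups (0.24 and -0.35). Rpl4, the gene of highest mean CPM, was at 1228 and 1097, 1436 and 1207, 1413 and 1421, and 977.5 and 1060 CPM. In all 3 the Smarca4+/- libraries were the lower ones in CC, and in Rpsa and Rplp0 the higher ones in CB.

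A higher value in Smarca4+/- CB and a lower one in Smarca4+/- CC were found with each library left out in turn for the large subunit proteins Rpl3 (0.17 and -0.59) and Rpl7 (0.21 and -0.53) and for the X-linked small subunit protein Rps4x (0.21 and -0.56). The small subunit proteins Rps3 (0.22 and -0.32) and Rps2 (0.26 and -0.31) also had these signs throughout, though in CC they were at -0.193 and -0.0851 without Smarca4+/+ CC replicate 2. Rpl11, which with Rpl5 and 5S RNA binds MDM2 when ribosome assembly is disturbed, had 0.19 in CB and -0.86 in CC (SE 0.37), and in CC it was -0.197 without Smarca4+/+ CC replicate 2 and -1.33 without Smarca4+/+ CC replicate 1.

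For the genes chosen by role in this paragraph, 1 library set the sign or most of the size in at least 1 fraction. Rpl5 had 0.08 in CB and -0.39 in CC (SE 0.32), but -0.104 in CB without Smarca4+/+ CB replicate 2 and -0.0281 in CC without Smarca4+/+ CC replicate 2. Rps19, the gene most often mutated in Diamond-Blackfan anaemia, had 0.27 and -0.19, but -0.0788 in CB without Smarca4+/- CB replicate 2 and -0.0133 in CC without Smarca4+/+ CC replicate 1. Rps6, the substrate of the S6 kinases, had 0.26 in CB and -0.17 in CC (SE 0.45), where it ran from -1.12 without Smarca4+/- CC replicate 2 to 0.365 without Smarca4+/- CC replicate 1. In CC the values of these 3 genes thus depended on which library was included. Rpl10, a late joining protein of the large subunit, had -0.07 in CC (SE 0.24), with -0.391 without Smarca4+/- CC replicate 1 and 0.177 without Smarca4+/- CC replicate 2. The ubiquitin fusion Rps27a had -0.09 (SE 0.31), with -0.361 without Smarca4+/+ CC replicate 1 and 0.226 without Smarca4+/+ CC replicate 2.

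Some genes had a positive value in both fractions, with CC libraries that overlapped for Rpl38, Rps29 and Rps27. In CC, Rpl38 had 0.49 (SE 0.57), from -0.295 without Smarca4+/+ CC replicate 1 to 2.39 without Smarca4+/+ CC replicate 2, and Rps27 had 0.11 (SE 0.33), from 0.644 to -0.299 without the same libraries. Rps29 had 0.34 (SE 0.39), with 0.0494 without Smarca4+/- CC replicate 1, and Rpl39, at the exit tunnel, had 0.57 (SE 0.40), with 0.163 without Smarca4+/+ CC replicate 1 and 1.14 without Smarca4+/+ CC replicate 2. In CB these 4 were at 0.35, 0.52, 0.45 and 0.38. Rpl13a, known for its part in the interferon-induced GAIT complex, had -0.03 between genotypes in CC, from -0.69 without Smarca4+/- CC replicate 2 to 0.393 without Smarca4+/- CC replicate 1. Its CC against CB fold changes were -0.84 in Smarca4+/+ and -0.88 in Smarca4+/-.

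Of the paralogs of the standard proteins, Rpl22l1 and Rps27l were low and poorly measured in CC. Rpl22l1, which can take the place of Rpl22, had 2 and 2 counts in the Smarca4+/+ CC libraries and 2 and 20 in Smarca4+/- CC, so its genotype fold change in CC of 1.97 (SE 1.07) rests on 1 library and was -0.367 without Smarca4+/- CC replicate 2. Rpl22 itself had 0.26 in CB and -0.59 in CC, where it was -0.369 without Smarca4+/- CC replicate 2. Rps27l had 12, 0, 6 and 8 counts in the 4 CC libraries, in the order Smarca4+/+ then Smarca4+/-. Rpl7l1, a nucleolar relative of Rpl7, had more counts, 36 and 60 in Smarca4+/+ CC and 53 and 66 in Smarca4+/- CC. Its genotype log2 fold change was 0.02 in CB and -0.13 in CC, where it ran from -0.407 without Smarca4+/+ CC replicate 1 to 0.207 without Smarca4+/+ CC replicate 2.

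Ribosomal proteins whose names the rule does not take in had like signs where they could be measured. Fau, a fusion gene that encodes a small subunit protein, had genotype log2 fold changes of 0.20 in CB and -0.91 in CC (SE 0.25, edgeR adjusted p = 0.162), and Rack1, the scaffold on the small subunit head, 0.24 and -0.51. Rpl36al had 0, 3, 0 and 0 counts in the CC libraries, too few to compare. None of the 4 tested passed in any comparison.

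Other genes of translation were given by lists fixed with the results of these data known. Of 23 translation factors and other mRNAs that start with a pyrimidine run, none passed in the genotype comparisons or from CB to CC in Smarca4+/+, and 1 fell in Smarca4+/-, where 1.5% of all genes did: Eef2, the translocation factor (log2 fold change -0.63, SE 0.14, edgeR adjusted p = 0.0303). Between genotypes the medians of the list were 0.09 in CB (20 of 23 positive) and -0.25 in CC (10 positive and 13 negative). From CB to CC they were 0.05 in wild-type (14 of 23 positive) and -0.22 in heterozygous cells (9 of 23 positive). The interaction had -0.30 (19 of 23 negative). Eef1a1, which brings tRNA to the ribosome, had 0.20 and -0.47 between genotypes in CB and CC.

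Of 77 mitochondrial ribosomal protein genes, whose proteins form the separate ribosome of mitochondria, 1 fell from CB to CC in Smarca4+/+, where 3.76% of all genes did, and none passed elsewhere. It was Mrps31, with 250 and 237 counts in Smarca4+/+ CB and 0 and 0 in CC, at least 4.64-fold lower against a floor of 3 counts over the group, and it had 14 and 13 counts in Smarca4+/- CC. Between genotypes the medians of this list were 0.10 in CB and -0.26 in CC, and from CB to CC they were -0.05 in wild-type and -0.37 in heterozygous cells.

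Genes of ribosome assembly include nucleolar factors that process ribosomal RNA. Of 30, 4 rose from CB to CC in Smarca4+/+, where 3.72% of all genes did: Heatr1 (1.11, SE 0.24, edgeR adjusted p = 0.0193), Mybbp1a (0.74, SE 0.19, 0.0367), Utp20 (0.87, SE 0.23, 0.0459) and Nolc1 (0.95, SE 0.26, 0.0473), all nucleolar proteins. None passed in Smarca4+/-, and the medians were 0.61 in Smarca4+/+ (23 of 30 positive) and 0.34 in Smarca4+/- (24 of 30 positive). Between genotypes the medians were 0.07 in CB and -0.13 in CC, with none passing. Among 16 genes that control ribosome production, Myc was the 1 gene that rose from CB to CC in Smarca4+/+ and also rose in Smarca4+/-, where 3.72% and 2.17% of all genes did (2.42, SE 0.29, adjusted p = 0.00125 in Smarca4+/+ and 2.02, SE 0.28, adjusted p = 0.00457 in Smarca4+/-). The medians of these 16 were -0.04 and 0.11 between genotypes in CB and CC.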

How the data were processed

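RNA was measured in 8 libraries, 2 in each of 4 groups. The authors deposited 1 table of unnormalized read counts, made from libraries depleted of ribosomal RNA, with gene positions and exon lengths. Per the submitters' processing notes, FastQC, STAR, featureCounts from Subread, R 4.2.1 and mm10 were used. For the other tools the version, the strand setting and the treatment of multimapping reads were not given in the sources used here. Of 55421 gene identifiers, 55154 were paired with a symbol.

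Counts were tested with edgeR 4.0.16 (R 4.3.3, limma 3.58.1): filterByExpr with a minimum of 10 counts and a total of 15, TMM scaling, and a quasi-likelihood fit of group means over all 8 libraries with 4 residual degrees of freedom. Contrasts were fitted on all 12997 genes and adjusted over them (Benjamini-Hochberg, threshold 0.05), and were tested on simulated data. SE is the absolute log2 fold change divided by the square root of F. CPM are counts per 1000000 after TMM scaling. Confidence intervals are Wilson at 95%, and floors are 3 counts over a group. Ribosomal protein genes, gene lists and cell markers were chosen with earlier results of these data known. Named genes are those called in a comparison, the 6 of smallest p where fewer than 5 were called, and a set chosen by role. The marker lists used are those of B cells, germinal centre B cells, dark and light zone, macrophages, T cells and erythroid cells. Alternatives were DESeq2 1.42.0, other scalings and filters, a replicate block, thinned or halved counts, and leaving out each library. Library totals and their precision are given with the results. Sequences are RefSeq windows of GRCm38.p6. Results for some of the genes are not reported here.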

Additional observations from a re-analysis of the deposited data

Results flagged for a closer look

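The summed share of the ribosomal protein genes had a ratio of Smarca4+/- to Smarca4+/+ of 1.26 in CB and of 0.772 in CC. It is listed here because both Smarca4+/- libraries were above both Smarca4+/+ libraries in CB and below them in CC. The difference between the 2 ratios was not tested as a sum. Gene by gene, the interaction term of the edgeR fit called 0 of the 80 genes, and 27 had a negative term at an unadjusted p under 0.05.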

How the results depend on the processing

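Depth limits the CC results: 10 to 18 of the 80 genes had under 30 counts in a CC library, against 0 or 1 in CB. With DESeq2 the number of ribosomal protein genes called was 1 between genotypes in CB (of 3 calls over all genes) and 19 in CC (of 829). From CB to CC it was 21 in Smarca4+/+ (of 2148) and 13 in Smarca4+/- cells (of 1487), and it was 19 for the interaction (of 323). In edgeR, genotype in CC gave 4 calls with no filter on low counts. CC against CB in Smarca4+/+ gave 3 calls with RLE scaling (of 908 over all genes) and 2 with total counts (of 857). It gave 2 with at least 50 counts in 2 libraries, 5 with CB thinned to the mean CC total and 0 with only the groups compared. In Smarca4+/- the calls were 1 with RLE (of 427 over all genes) and 0 with total counts (of 425). They were 6 with no filter, 0 with thinning, 0 with only the groups compared and 4 with counts halved, which was chosen after seeing the data. For the other edgeR settings the calls over all genes are not given here.

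The median log2 fold change in Smarca4+/+ was 0.367 with DESeq2, 0.367 with RLE, 0.422 with total counts and 0.391 with thinning. In Smarca4+/- it was -0.311, -0.309, -0.29 and -0.224 in the same order, and -0.326 with at least 50 counts in 2 libraries. With genes of the ribosomal RNA locus and the mitochondrial genome left out, the summed share was 1.893% and 1.814% in Smarca4+/+ CB, 2.119% and 2.31% in Smarca4+/- CB, 2.311% and 2.565% in Smarca4+/+ CC and 1.993% and 1.872% in Smarca4+/- CC, from a smaller total by construction. The causes of the other shifts were not tested.

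Leaving out 1 library left 1 library in its group. The calls from CB to CC changed with the library left out, so effect sizes are given here. Between genotypes the medians ranged from 0.217 to 0.344 in CB and from -0.357 to -0.179 in CC. From CB to CC they ranged from 0.172 to 0.303 in wild-type and from -0.451 to -0.295 in heterozygous cells, and the interaction from -0.661 to -0.49. The median minus that of all genes in Smarca4+/- ranged from -0.398 to 0.0623, the one change of sign, without Smarca4+/- CC replicate 2. The replicate block gave 0, 0, 1, 2 and 0 calls in the 5 comparisons, with medians of 0.267, -0.307, 0.206, -0.426 and -0.553, and changed no call. That block joins equal replicate numbers across both genotypes. The replicate differences had an r of -0.046 to 0.0527 between pairs of groups over all genes, which at the depth of the CC libraries cannot exclude pairs. The labels do not say that equal numbers mark 1 mouse, so the numbers were not used as pairs.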
